A study of Mus musculus with 2 samples.

Results

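Conventional dendritic cells (cDCs) were selected from single-cell RNA profiles of aneurysmal mouse aorta: 381 of 16403 kept cells, 214 in the Gsdme-KO library and 167 in the WT library. A kept cell had at least 500 UMIs (unique molecular identifiers, each standing for a captured RNA molecule), at least 250 genes and at most 25% of its UMIs from mitochondrial genes. A cDC was a kept cell with a UMI of at least 2 of Flt3, Cd209a, Zbtb46, Clec9a, Xcr1, Wdfy4 and Ifi205, and with at least 0.5% of its UMIs from Cd74, H2-Aa, H2-Ab1 and H2-Eb1. It had UMIs of at most 1 of the mature dendritic cell genes Ccr7, Fscn1, Ccl22 and Il12b, and none of Adgre1 (macrophages), Cd79a (B cells) or Cd3e (T cells). The Gsdme-KO library came from mice with a global deletion of Gsdme, which encodes gasdermin E, a pore-forming protein cut by caspases. The WT library came from C57BL/6J mice. Both groups had an abdominal aortic aneurysm (AAA) induced with PPE, whose full name the labels do not give (in this field it is porcine pancreatic elastase, which digests elastin). The abdominal aorta was digested into cells and profiled on the BD Rhapsody system, which captures cells in microwells. The labels give no age, sex, time after induction or number of mice per library. With 1 library per group there was no replicate and no test, and each interval given is an exact 95% interval that covers counting error only.

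Dendritic cells take up antigen, cut it into peptides and show these on MHC class II molecules to T cells. Conventional dendritic cells arise from a Flt3-dependent precursor and fall into branches. cDC1 carry Xcr1 and Clec9a, depend on the transcription factors Irf8 and Batf3 and present material from dead cells to CD8 T cells. cDC2 carry Sirpa, Cd209a or Clec10a, depend in part on Irf4 and present mainly to CD4 T cells. Type I interferon acts on them through a complex of transcription factors that binds promoters of antiviral genes at interferon-stimulated response elements.

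The levels below were UMIs summed over the cDCs of a library and divided by their total, in counts per 1000000 UMIs (CPM), and ratios are Gsdme-KO over WT. The cDCs held 1330883 UMIs in the Gsdme-KO library and 987364 in the WT library. The median was 5484.5 UMIs per Gsdme-KO cDC and 5710 per WT cDC, with ranges of 506 to 27580 and 621 to 19236. Mitochondrial genes took a median of 3.91% of UMIs in Gsdme-KO cDCs and 2.88% in WT cDCs, beside 3.55% and 2.81% over all kept cells. The libraries shared 73 cell barcodes, of which 2 were Gsdme-KO cDCs and 4 were WT cDCs. Gsdme itself gave 5 UMIs in the Gsdme-KO cDCs and 4 in the WT cDCs (ratio 0.927, 0.200 to 4.67). At this depth no difference in Gsdme was detectable in the cDCs. In the other kept cells Gsdme was at 2.52 CPM in the Gsdme-KO library and 5.57 CPM in the WT library. The deleted exons are not named in these sources, so that Gsdme UMIs may come from outside the deletion and do not check the label.

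The cDCs were chosen by UMIs of the rule genes, whose values are given as a description and support nothing. Flt3, the receptor for the dendritic cell growth factor FLT3L, was at 449 CPM in Gsdme-KO cDCs and 360 CPM in WT cDCs, beside 8.88 and 11.6 CPM in cells of the macrophage gate (Adgre1 and at least 3 of 7 macrophage genes). Wdfy4, which cDC1 need for cross-presentation, was at 340 CPM in Gsdme-KO cDCs and 380 CPM in WT cDCs. The other rule genes were likewise higher in cDCs than in macrophages, but Ifi205 did not single out cDCs. It was at 328 CPM in Gsdme-KO cDCs and 268 CPM in WT cDCs, below the 636 and 659 CPM in the fibroblast gate. Without Ifi205 among the rule genes, 196 Gsdme-KO and 139 WT cells would have been kept. Just inside the rule lay 88 Gsdme-KO and 77 WT cDCs with exactly 2 of the 7 genes, and just outside it 195 and 122 cells with 1 gene. Another 225 Gsdme-KO and 168 WT cells met every criterion except that they had an Adgre1 UMI.

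Genes that the rule did not use bore on the label. Of the 22 matched genes of a cDC1 list, 20 were higher in cDCs than in the macrophage gate in both libraries, as were 25 of 26 genes shared by both branches. Only 10 of 24 cDC2 genes were higher, and Clec10a, Itgam and Cd302 were higher in the macrophage gate of both libraries. Against the macrophage gate the label therefore rests on the cDC1 and shared genes. This was read over all cDCs together and was not checked against macrophages within each branch. Against the monocyte gate, 20 of the 22 cDC1 genes, 24 of the 26 shared genes and 12 of the 24 cDC2 genes were higher in both libraries. Against the mature dendritic cell gate, 18 of the 22 cDC1 genes but only 9 of the 26 shared genes were higher in cDCs in both libraries, so that the shared genes do not set cDCs apart from mature dendritic cells. Plbd1, a phospholipase of cDCs, was at 859 CPM in Gsdme-KO cDCs and 818 CPM in WT cDCs, beside 134 and 119 CPM in the macrophage gate. Naaa, a lysosomal amidase enriched in cDC1, was at 671 CPM in Gsdme-KO cDCs and 508 CPM in WT cDCs, beside 248 and 133 CPM in the macrophage gate.

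RNA of other cells was also present. At least 3 of 10 fibroblast genes had a UMI in 83 of 214 Gsdme-KO cDCs (38.8%) and in 74 of 167 WT cDCs (44.3%). All 10 were detected, with a summed level of 2699 CPM in Gsdme-KO and 3304 CPM in WT cDCs, beside 54179 and 57933 CPM in the fibroblast gate itself. The 15 macrophage genes, again all detected, summed to 1915 CPM in Gsdme-KO cDCs and 2531 CPM in WT cDCs, beside 23114 and 22553 CPM in the macrophage gate. At least 2 of 6 macrophage genes, among them C1qa, C1qb, C1qc, Mertk and Fcgr1, had UMIs in 56 Gsdme-KO cDCs (26.2%) and 76 WT cDCs (45.5%), a ratio of 0.575 (0.400 to 0.823). By the sum and by this count macrophage RNA was thus lower in the Gsdme-KO cDCs, but not for every gene. Cd163 (58.6 CPM in Gsdme-KO, 9.12 CPM in WT) and Lyve1 (48.8 and 31.4 CPM) were higher. The other genes of the list were lower or about even. The part of macrophage RNA in the results below was not tested beyond the values given without those cells. Monocyte genes, many of which cDCs also express, gave the largest sum, 6717 CPM in Gsdme-KO and 6995 CPM in WT cDCs, beside 21294 and 23769 CPM in the monocyte gate. At least 3 of the 15 had UMIs in 182 of 214 Gsdme-KO and 147 of 167 WT cDCs. The 13 neutrophil genes summed to 618 CPM in Gsdme-KO and 673 CPM in WT cDCs, with Ly6g, Camp and Ngp at 0 in both. The 11 B cell genes summed to 113 and 99.3 CPM, with 6 at 0 in each library. The 10 NK genes summed to 8.27 CPM in Gsdme-KO and 7.09 CPM in WT cDCs, with Ncr1, Klrb1c and Gzma among those at 0.

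cDCs made up 2.44% of kept cells in the Gsdme-KO library and 2.19% in the WT library, a ratio of 1.11 (0.904 to 1.37). Of the kept cells with a UMI of Ptprc, the pan-leukocyte gene, they made up 3.89% and 3.10% (ratio 1.25, 1.01 to 1.55). The interval of the share of all kept cells includes 1. Without cells with 2 macrophage genes the ratio of shares was 1.51, so that the size of the difference rests on how macrophage RNA is treated.

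By their UMIs of Xcr1, Clec9a and Cd209a the cDCs were split into types. The Xcr1/Clec9a type (either gene, no Cd209a) held 57 of 214 Gsdme-KO cDCs (26.6%) and 28 of 167 WT cDCs (16.8%), a ratio of 1.59 (0.994 to 2.59). The Cd209a type (no Xcr1 or Clec9a) held 106 Gsdme-KO (49.5%) and 87 WT cDCs (52.1%). Both kinds of gene were found in 13 Gsdme-KO and 5 WT cDCs, and neither in 38 (17.8%) and 47 (28.1%). No order of the Xcr1/Clec9a shares was read from this: once every cell had been thinned to 1000 UMIs, the Xcr1/Clec9a type held 32 of 205 Gsdme-KO and 23 of 164 WT cells, a ratio of 1.11. As a description of genes the rule used, Clec9a was at 181 CPM in Gsdme-KO and 178 CPM in WT cDCs, and Xcr1 at 161 and 145 CPM. Clec9a UMIs were found in 29.9% of Gsdme-KO and 15.6% of WT cDCs, against 0.341% and 0.325% of cells in the fibroblast gate (median 7539 and 6889 UMIs).

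**Figure D1:**
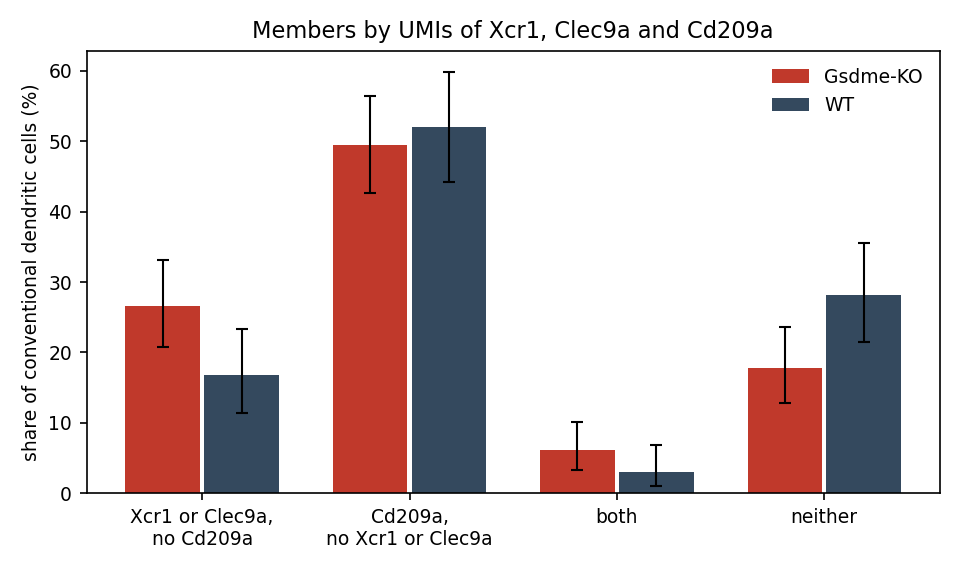
Share of conventional dendritic cells (%, vertical axis) by the UMIs of Xcr1, Clec9a and Cd209a, in the Gsdme-KO library (214 cells, left bars) and the WT library (167 cells, right bars), with exact 95% binomial intervals that cover counting error only. The Xcr1 or Clec9a bars reach 26.6% in Gsdme-KO and 16.8% in WT with overlapping intervals, and the Cd209a bars 49.5% and 52.1%.

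The types carried the programs of the branches. All 22 cDC1 genes were higher in the Xcr1/Clec9a type than in the Cd209a type in both libraries, and 14 of the 22 detected cDC2 genes were lower in both. The other way round in both libraries were Esam, Clec12a, Notch2 and Jaml. Irf8, the cDC1 transcription factor, was at 470 CPM in the Xcr1/Clec9a type and 13.8 CPM in the Cd209a type of the Gsdme-KO library, a ratio of 34.0, and at 548 and 47.1 CPM in the WT library, a ratio of 11.6. Cst3, the protease inhibitor cystatin C, was 4.86 times as high in the Xcr1/Clec9a type in the Gsdme-KO library and 6.13 times in the WT library. On the cDC2 side, the lectin gene Clec10a was at 28.0 CPM in the Xcr1/Clec9a type and 402 CPM in the Cd209a type of the Gsdme-KO library, and at 43.3 and 424 CPM in the WT library. Irf4, a transcription factor of cDC2, was at 9.34 and 110 CPM in the Gsdme-KO library and at 4.81 and 188 CPM in the WT library. The cells with neither kind of gene had macrophage genes most often, with at least 2 of 6 in 18 of 38 Gsdme-KO and 30 of 47 WT cells. Siglech, a lectin of plasmacytoid dendritic cells, gave 194 CPM in the Gsdme-KO Xcr1/Clec9a type and 4.81 CPM in the WT Xcr1/Clec9a type. Cells with at least 2 of 5 plasmacytoid genes numbered 9 Gsdme-KO and 3 WT cDCs.

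**Figure D2:**
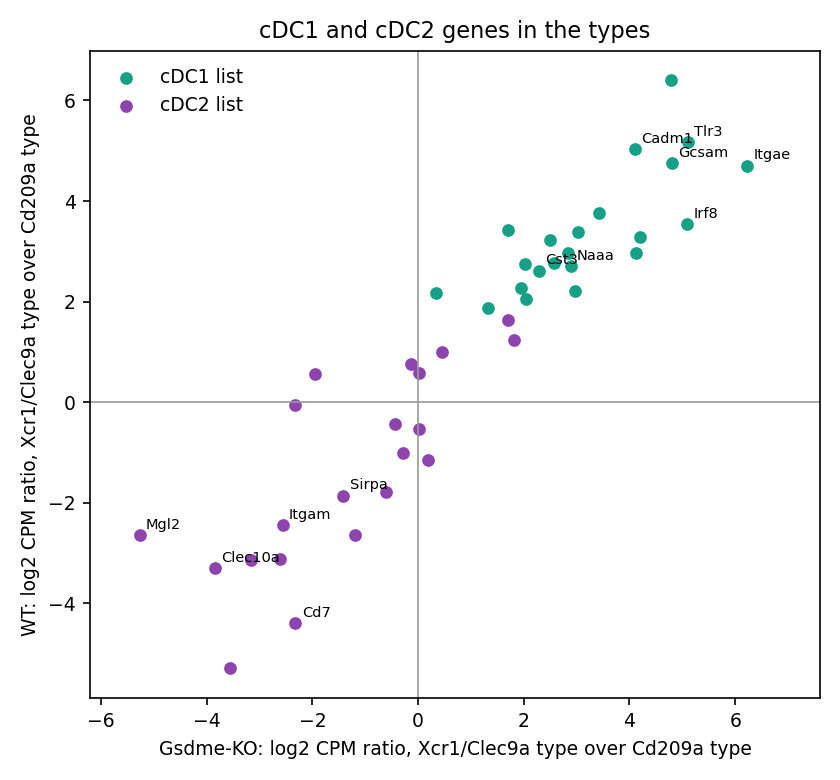
Log2 CPM ratio of the Xcr1/Clec9a type over the Cd209a type in the Gsdme-KO library (horizontal axis) and the WT library (vertical axis); each point is a gene of the cDC1 or cDC2 list, none used by the rule. All 22 cDC1 genes lie right of 0 and above 0, with Irf8 at ratios of 34.0 in Gsdme-KO and 11.6 in WT, while most cDC2 genes lie left of 0 and below 0.

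Levels of the branch genes differed between the libraries in part. Over all cDCs, 5710 genes could be compared (at least 30 UMIs in the higher library and UMIs in at least 5% of its cDCs). A ratio of at least 1.5, the size called here, was reached by 9.6% of them, and 8.2% had a ratio of at most 1 over 1.5. Their median log2 ratio was 0.00. Of the 17 cDC1 genes compared, 14 were higher and 3 lower in Gsdme-KO cDCs, and 3 passed the 1.5-fold size upward and 1 downward. Cst3 was at 4981 CPM in Gsdme-KO cDCs and 3315 CPM in WT cDCs (ratio 1.5, 1.44 to 1.57). Within the Xcr1/Clec9a type its ratio was 1.03, and within the Cd209a type 1.30. Septin3, a septin of the cytoskeleton, was at 249 CPM in Gsdme-KO cDCs and 127 CPM in WT cDCs (1.96, 1.59 to 2.43), with ratios of 1.25 and 3.82 within the types. Cadm1, an adhesion molecule of cDC1, went the other way, with 97.7 CPM in Gsdme-KO and 140 CPM in WT cDCs (0.699, 0.546 to 0.895), but its log2 ratio was 0.46 without cells with fibroblast genes. Irf8 was at 185 CPM in Gsdme-KO and 183 CPM in WT cDCs (1.01, 0.829 to 1.23).

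Among 16 cDC2 genes, 7 were higher and 9 lower in Gsdme-KO cDCs. Mgl2, a galactose-binding lectin of cDC2, was at 209 CPM in Gsdme-KO cDCs and 426 CPM in WT cDCs (0.490, 0.420 to 0.571), and at 360 and 662 CPM within the Cd209a type. In the other kept cells its ratio was 1.08. The Mgl2 difference was not seen without cells with at least 3 fibroblast genes, where its log2 ratio was -0.05. Cd72, a C-type lectin that binds semaphorin 4D, was at 106 CPM in Gsdme-KO cDCs and 206 CPM in WT cDCs (0.515, 0.413 to 0.642), close to its ratio of 0.466 in the other kept cells. Cd7, an immunoglobulin superfamily receptor, was higher, with 174 CPM in Gsdme-KO and 79.0 CPM in WT cDCs (2.20, 1.69 to 2.88), against 1.11 in the other kept cells. The mature dendritic cell gate also had more Cd7 in Gsdme-KO (50.9 CPM) than in WT (15.8 CPM). So did the monocyte gate, with 149 CPM in Gsdme-KO and 44.6 CPM in WT. Of the genes shared by the branches, 13 of 24 were higher and 11 lower. Itgax, which encodes CD11c, was at 189 CPM in Gsdme-KO cDCs and 314 CPM in WT cDCs (0.601, 0.507 to 0.712), with a ratio of 0.532 in the other kept cells. The lower Itgax level thus had about the same size outside the cDCs. Hmgn3, a nucleosome-binding protein, gave 34 UMIs in Gsdme-KO and 2 in WT cDCs (12.6, 3.23 to 108).

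Genes induced by type I interferon were mostly lower in the Gsdme-KO cDCs. Of 43 matched genes of the list, 38 could be compared, of which 32 were lower and 6 higher, where 49.7% of all compared genes had a ratio below 1. The 1.5-fold size was passed downward by 12, against 8.2% of all compared genes, and upward by 1, against 9.6%. The median log2 ratio was -0.34 in cDCs and -0.28 in the other kept cells, so that a similar lower level was found outside cDCs, and the difference between them was not tested. The upstream sequences of the 2 genes of the list whose intervals lay furthest below 1 and of Bst2, the 1 gene that passed upward, are shown because they hold the interferon-stimulated response element core. Each line gives the 170 bases before the RefSeq transcript start (GRCm38.p6), read on the gene's own strand, with matches to GAAANNGAAA on either strand in capitals.
Rsad2: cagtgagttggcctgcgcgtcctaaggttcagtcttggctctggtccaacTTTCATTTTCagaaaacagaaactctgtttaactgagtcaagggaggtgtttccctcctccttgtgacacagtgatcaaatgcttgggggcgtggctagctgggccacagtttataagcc
Ifit3: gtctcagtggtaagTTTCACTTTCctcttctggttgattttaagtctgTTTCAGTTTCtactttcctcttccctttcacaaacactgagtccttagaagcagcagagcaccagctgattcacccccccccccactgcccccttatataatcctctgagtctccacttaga
Bst2: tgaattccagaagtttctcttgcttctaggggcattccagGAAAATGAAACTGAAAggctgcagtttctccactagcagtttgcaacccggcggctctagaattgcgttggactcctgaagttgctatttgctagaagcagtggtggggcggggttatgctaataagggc
They lie at chr12:26456453-26456622 (minus strand), chr19:34583359-34583528 (plus strand) and chr8:71537473-71537642 (minus strand). Rsad2 has 1 match, at -120 from the start, Ifit3 has 2, at -156 and -122, and Bst2 has 2 that overlap, at -130 and -124. In windows of 250 bases before to 50 after the start, the motif was found in 17 of the 29 compared interferon genes that had a promoter entry (58.6%) and in 3.99% of all 27025 promoters. It was found in 4.72% of the promoters of all compared genes and in 0 of 16 heat shock genes, and a match is a description of letters, not a site.

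Rsad2 (viperin, chr12:26442746-26456452), an antiviral enzyme, had 23 UMIs in Gsdme-KO cDCs and 87 in WT cDCs, at 17.3 and 88.1 CPM (0.196, 0.118 to 0.313). It was found in 4.21% of Gsdme-KO cDCs and 13.2% of WT cDCs. Its ratio was 0.597 in the other kept cells and 0.0661 within the Cd209a type. Within the Xcr1/Clec9a type it was 1.62 (0.417 to 9.16), on 10 Gsdme-KO and 3 WT UMIs. Of its 87 WT UMIs, 30 lay in 1 cell, and without the top cell of each library the ratio was 0.170. Ifit3, which binds viral RNA with its IFIT partners, was at 12.8 CPM in Gsdme-KO cDCs and 44.6 CPM in WT cDCs (0.287, 0.154 to 0.512). Oasl1, a 2'-5' oligoadenylate synthetase-like protein, was at 41.3 CPM in Gsdme-KO and 111 CPM in WT cDCs (0.371, 0.263 to 0.517). Ifih1, the RNA sensor MDA5, was at 116 CPM in Gsdme-KO and 216 CPM in WT cDCs (0.540, 0.436 to 0.667). Only 6 of the 38 genes were higher in Gsdme-KO cDCs. Ly6e, a GPI-anchored surface protein, was at 763 CPM in Gsdme-KO and 692 CPM in WT cDCs (1.10, 1.00 to 1.22). Its log2 ratio was -0.14 without cells with 3 fibroblast genes. Bst2 (tetherin) was at 48.8 CPM in Gsdme-KO and 28.4 CPM in WT cDCs (1.72, 1.09 to 2.79). Within the Cd209a type the ratio of Bst2 was 0.991. Slfn5, a member of the schlafen family, was at 413 CPM in Gsdme-KO and 519 CPM in WT cDCs (0.797, 0.705 to 0.901).

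The size of the interferon difference depended on which cells were counted. The median log2 ratio was -0.52 within the Cd209a type (12 of 26 genes passed downward, against 9.74% of all genes compared there, and 1 upward, against 10.5%), -0.68 without cells with 2 macrophage genes and -1.04 without cells with 3 fibroblast genes. Among the 126 Gsdme-KO and 90 WT cDCs with at least 3 of the 7 rule genes it was -0.01, so that the lower median was not seen in the cells that met the rule most fully. Rsad2 and Ifit3 remained lower there, with log2 ratios of -1.23 and -1.40. Counted per cell after thinning to 1000 UMIs, at least 5 genes of the list were found in 41 of 205 Gsdme-KO cDCs (20.0%) and 51 of 164 WT cDCs (31.1%), a ratio of 0.643 (0.416 to 0.990). Without thinning the shares were 78.0% and 83.2%.

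**Figure D3:**
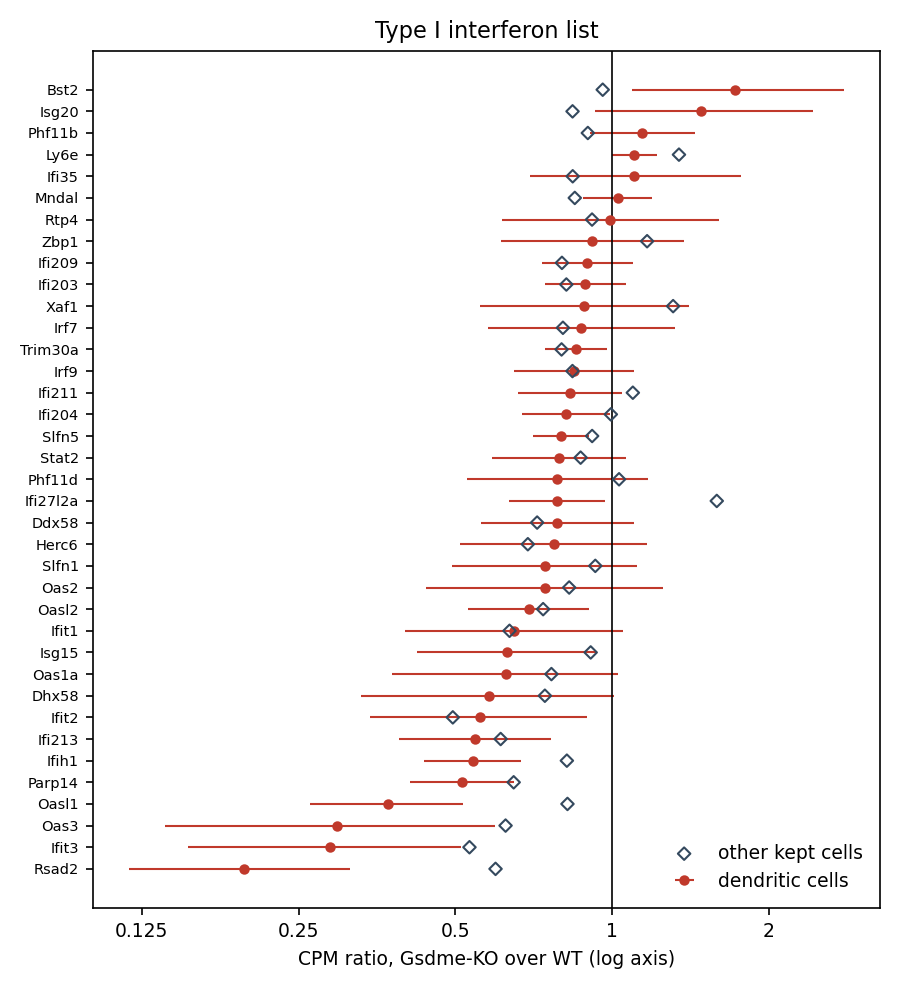
CPM ratio of Gsdme-KO over WT (horizontal log axis) for 37 of the 38 compared genes of the type I interferon list in conventional dendritic cells (filled points, bars are exact 95% intervals of counting error) and in the other kept cells (open diamonds). Rsad2 at 0.196 and Ifit3 at 0.287 lie lowest, and 31 of the 37 filled points lie left of 1.

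All 8 compared genes of an interferon gamma list were lower in Gsdme-KO cDCs, with a median log2 ratio of -0.54 against -0.29 in the other kept cells. Ifi47, Gbp2 and Irgm1 passed the 1.5-fold size downward, as did 8.2% of all compared genes. Ifi47, an immunity-related GTPase, was at 30.8 CPM in Gsdme-KO cDCs and 71.9 CPM in WT cDCs (0.428, 0.284 to 0.638). Gbp2, a guanylate-binding protein, was at 26.3 CPM in Gsdme-KO and 49.6 CPM in WT cDCs (0.530, 0.333 to 0.835), but 23 of its 49 WT UMIs lay in 1 cell, and without the top cells its ratio was 0.862. Ciita, the master regulator of MHC class II, is on this list as well, at 176 CPM in Gsdme-KO and 229 CPM in WT cDCs (0.768, 0.637 to 0.926). Without cells with 2 macrophage genes the median of the list was -1.03, and without cells with 3 fibroblast genes it was -1.33.

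Antigen presentation genes differed little. Of the 10 compared MHC class II genes outside the rule, 4 were higher and 6 lower, with a median log2 ratio of -0.12 that changed sign under thinning. H2-DMb1, a chain of the peptide-loading factor H2-DM, was at 380 CPM in Gsdme-KO cDCs and 312 CPM in WT cDCs (1.22, 1.06 to 1.41). Its partner H2-DMa was at 281 and 236 CPM (1.19, 1.01 to 1.41). Lgmn, the endosomal protease legumain, was lower, with 161 CPM in Gsdme-KO and 233 CPM in WT cDCs (0.690, 0.570 to 0.835). MHC class I genes were split, with 10 of 20 higher. Psme1, a subunit of the proteasome activator PA28, was at 258 CPM in Gsdme-KO and 161 CPM in WT cDCs (1.61, 1.33 to 1.95), with 1.45 in the other kept cells. H2-Q6 and H2-Q7, class I genes so alike that reads may be split between them, were lower at ratios of 0.579 and 0.647.

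Genes of dendritic cell maturation were lower more often than higher, 19 against 5 of 24, with a median log2 ratio of -0.23 beside -0.32 in the other kept cells. Birc2 (0.502) and Stat5a (0.645) passed the 1.5-fold size downward. The calls of this list were near or below the shares of all compared genes, 8.2% downward and 9.6% upward. Of all compared genes, 49.7% had a ratio below 1. Cd83, a surface marker of activated dendritic cells, was at 822 CPM in Gsdme-KO cDCs and 1097 CPM in WT cDCs (0.749, 0.688 to 0.816). The costimulatory genes Cd80 and Cd86, ligands of CD28, had ratios of 0.753 (0.656 to 0.863) and 0.860 (0.777 to 0.952), and Cd40 had 0.700 (0.540 to 0.908). Rel, the NF-kB subunit c-Rel, was at 1299 CPM in Gsdme-KO and 1659 CPM in WT cDCs (0.783, 0.732 to 0.838), while Relb had a ratio of 1.15 (0.925 to 1.44). Tnfsf4, which encodes OX40 ligand, was the gene that passed upward, at 59.4 CPM in Gsdme-KO and 27.3 CPM in WT cDCs (2.17, 1.39 to 3.50). Its ratio was 4.12 within the Cd209a type and 0.745 in the other kept cells.

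Cytokine genes were lower in 14 of 19 cases in the Gsdme-KO cDCs, 7 of them by the 1.5-fold size. Among all compared genes 49.7% had a ratio below 1 and 8.2% passed that size downward. The median log2 ratio of the cytokine list was -0.37 in cDCs and in the other kept cells alike. Il1rn (chr2:24336853-24351494), the antagonist of the interleukin 1 receptor, had 309 UMIs in Gsdme-KO cDCs and 738 in WT cDCs, at 232 and 747 CPM (0.311, 0.271 to 0.355). Its ratio was 0.293 within the Xcr1/Clec9a type, 0.407 within the Cd209a type and 0.647 in the other kept cells. Il1rn UMIs were found in 29.0% of Gsdme-KO and 50.9% of WT cDCs, against 8.79% and 14.1% of cells in the fibroblast gate. The difference was therefore present in each type and larger in cDCs than over the other kept cells together, a contrast that was not tested. It was not seen in the mature dendritic cell gate, where Il1rn was at 440 CPM in Gsdme-KO and 357 CPM in WT (ratio 1.23). In the fibroblast gate the ratio was 0.413. Il1rn was most abundant in the neutrophil gate, at 3152 CPM in Gsdme-KO and 3752 CPM in WT (0.840). With Adgre1-positive cells included the log2 ratio of Il1rn was -0.42, against -1.69 by the rule.

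Tnf, the inflammatory cytokine, had 293 UMIs in Gsdme-KO cDCs and 543 in WT cDCs, at 220 and 550 CPM (0.400, 0.346 to 0.462). Its ratio was 0.451 and 0.412 within the types and 0.655 in the other kept cells. Tnf UMIs were found in 36.9% of Gsdme-KO and 59.9% of WT cDCs, and in 13.7% and 28.3% of cells in the fibroblast gate. Il10, an inhibitory cytokine, was at 47.3 CPM in Gsdme-KO and 120 CPM in WT cDCs (0.396, 0.287 to 0.542), and Osm, an interleukin 6 family member, at 119 and 264 CPM (0.449, 0.366 to 0.549). With Adgre1-positive cells included, the log2 ratios were -0.63 for Tnf, -0.48 for Il10 and -0.38 for Osm. Il1b was the cytokine with the most UMIs, 5428 in Gsdme-KO and 5247 in WT cDCs, or 4079 and 5314 CPM (0.767, 0.739 to 0.797). Its ratio of 0.668 in the other kept cells was lower still. Csf1 and Igf1, growth factors of macrophages and of tissue growth, were higher at ratios of 1.77 and 2.37, but both were more abundant in the fibroblast gate. Both changed sign without cells with 3 fibroblast genes, at log2 ratios of -0.76 and -1.02.

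Chemokines were lower in 10 of 14 cases, 7 of them by the 1.5-fold size, and 2 passed it upward. The shares over all compared genes were 49.7% lower, 8.2% past that size downward and 9.6% upward. The median log2 ratio of the chemokines was -0.46 against 0.01 in the other kept cells. Ccl3 and Ccl4, chemokines that attract monocytes and T cells, were at 134 and 417 CPM in Gsdme-KO cDCs and at 262 and 737 CPM in WT cDCs, ratios of 0.510 (0.419 to 0.619) and 0.566 (0.506 to 0.633). In the Xcr1/Clec9a type their ratios were 0.972 and 1.19, and in the Cd209a type 0.473 and 0.424. Cxcl2, a ligand of the neutrophil receptor CXCR2, was at 1186 CPM in Gsdme-KO and 1879 CPM in WT cDCs (0.631, 0.590 to 0.676), against 0.959 in the other kept cells. With Adgre1-positive cells included the log2 ratios of Ccl3 and Ccl4 were -0.31 and -0.33, and Cxcl2 changed direction, at a log2 ratio of 0.41. Pf4 and Ppbp, chemokines of platelets, had ratios of 0.241 and 0.175. A list of 8 platelet markers summed to 47.3 CPM in Gsdme-KO and 137 CPM in WT cDCs. That sum includes Pf4 and Ppbp themselves, so that it cannot show whether other platelet markers moved with them. Of the 68 WT UMIs of Ppbp, 37 lay in 1 cell. Ccl2, a ligand of CCR2, was higher, at 278 CPM in Gsdme-KO and 138 CPM in WT cDCs (2.02, 1.65 to 2.48). It was higher in the other kept cells too (ratio 2.90), and in the fibroblast gate it was at 1978 CPM in Gsdme-KO and 738 CPM in WT. Cxcl1, a neutrophil chemokine, was at 498 CPM in Gsdme-KO and 318 CPM in WT cDCs (1.57, 1.37 to 1.8), beside 4113 and 2241 CPM in the fibroblast gate. Its log2 ratio was -1.30 without cells with 3 fibroblast genes, and 229 of its 663 Gsdme-KO UMIs lay in 1 cell. Of the NF-kB regulators and feedback genes, 18 of 21 were lower, against 49.7% of all compared genes. The median of this list was -0.26 against -0.29 in the other kept cells. Nfkbia, the NF-kB inhibitor, had a ratio of 0.660 (0.617 to 0.705) in cDCs and 0.710 in the rest.

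The remaining lists of sensing, uptake and metabolism are given against the background of 8.2% of all compared genes past the 1.5-fold size downward, 9.6% upward and 49.7% with a ratio below 1. Lectins and other pattern receptors were lower in 20 of 25 cases in Gsdme-KO cDCs, 7 of them by the 1.5-fold size. Receptors for dead cells and antibodies were lower in 14 of 21 cases, again 7 by that size. Inflammasome and cell death genes were lower in 15 of 23 cases, with 3 past the size downward and 2 upward. Genes of glycolysis and hypoxia were lower in 14 of 19 cases and genes of lipids and lysosomes in 16 of 21, with 1 past the size downward in each. The calls of the inflammasome, glycolysis and lipid lists were thus near or below that background. Transcription factors of dendritic cells were nearly even, with 16 of 37 higher and 21 lower, and chemokine receptors had 5 of 13 higher.

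Heat shock genes were lower in Gsdme-KO cDCs in 16 of 20 cases, with a median log2 ratio of -0.28 where the other kept cells had 0.17. Hsph1, Hspa1a, Hspa1b and Sdf2l1 passed the 1.5-fold size downward and Hspb1 upward. Over all compared genes 49.7% were lower, 8.2% passed that size downward and 9.6% upward. Hspb1, the small chaperone HSP27, was at 40.6 CPM in Gsdme-KO cDCs and 19.2 CPM in WT cDCs (2.11, 1.23 to 3.77), beside 789 and 387 CPM in the fibroblast gate, and its log2 ratio was -0.21 without cells with 3 fibroblast genes. Hspa1a, an inducible HSP70, was at 171 CPM in Gsdme-KO cDCs and 352 CPM in WT cDCs (0.486, 0.410 to 0.576), against a ratio of 1.15 in the other kept cells. Its near copy Hspa1b, with which it may share reads, had 0.496 (0.404 to 0.606). Hsph1, a co-chaperone of HSP70, was at 76.6 CPM in Gsdme-KO and 184 CPM in WT cDCs (0.416, 0.323 to 0.533). The constitutive chaperone Hspa8 was at 1618 CPM in Gsdme-KO and 2412 CPM in WT cDCs (0.671, 0.632 to 0.711). The lowest ratios were thus those of HSP70 genes and their partner, and within the types Hspa1a had 0.384 (Xcr1/Clec9a) and 0.336 (Cd209a). Of its 348 WT UMIs 94 lay in 1 cell, and without the top cells the ratio was 0.512. With Adgre1-positive cells included, the log2 ratio of Hspa1a was -0.11. Immediate early genes, which digestion of tissue can also induce, had a median of -0.20, and none of 25 passed the 1.5-fold size in either direction. Fos was at 2483 CPM in Gsdme-KO and 2512 CPM in WT cDCs (0.988, 0.938 to 1.04).

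Genes of cell division were higher in Gsdme-KO cDCs in 10 of 13 cases, 5 of them by the 1.5-fold size. Those 5 were Ube2c, Birc5, Hmgb2, Cenpa and Top2a, against none downward. Over all compared genes 50.3% had a ratio above 1, and 9.6% passed that size upward and 8.2% downward. The median log2 ratio of the list was 0.23, but 0.066 in the Cd209a type and -0.021 with the types at equal weight. Ube2c, a ubiquitin-conjugating enzyme of mitotic exit, had 89 UMIs in 11 Gsdme-KO cDCs and 1 UMI in WT cDCs, a ratio of 66.0 (11.6 to 2637). Of those 89 UMIs, 27 lay in 1 cell, and without the top cells the ratio was 15.4. Top2a, the topoisomerase of dividing cells, was at 49.6 CPM in Gsdme-KO and 28.4 CPM in WT cDCs (1.75, 1.11 to 2.83), with 25 of its 28 WT UMIs in 1 cell and a ratio of 12.6 without the top cells. Birc5 (survivin) had 31 UMIs in Gsdme-KO and 3 in WT cDCs (7.67, 2.39 to 39.2), but its log2 ratio was -0.32 after thinning. Hmgb2, a chromatin protein of dividing cells, was at 343 CPM in Gsdme-KO and 188 CPM in WT cDCs (1.82, 1.53 to 2.17), against 0.998 in the other kept cells. Mki67, a marker of cycling cells, was at 117 CPM in Gsdme-KO and 151 CPM in WT cDCs (0.777, 0.616 to 0.979), and Pcna, of DNA replication, at 230 and 236 CPM (0.974, 0.819 to 1.16). At least 2 of 10 mitotic genes were found in 19 of 214 Gsdme-KO cDCs (8.88%) and 4 of 167 WT cDCs (2.40%), a ratio of 3.71 (1.23 to 15.0). The ratio was 2.46 (0.523 to 23.1) within the Xcr1/Clec9a type and 2.87 (0.547 to 28.3) within the Cd209a type. Both of these intervals include 1. After thinning at least 2 mitotic genes were found in 7 of 205 and 1 of 164 cells, where the interval of the ratio was 0.719 to 252. In the macrophage gate they were found in 218 of 2265 Gsdme-KO (9.62%) and 242 of 2194 WT cells, with medians of 7643 and 7046 UMIs per cell. In the mature dendritic cell gate they were found in 3 of 39 Gsdme-KO cells (7.69%, 1.62 to 20.9). The WT cells of that gate had them in 2 of 32 (6.25%, 0.766 to 20.8). The 2.40% of WT cDCs lies within that interval. These gates were not thinned, and the place of the cDCs beside them was not tested. In neutrophils, which do not divide, the share was 0.304% in Gsdme-KO and 0.509% in WT (median 1645 and 1753 UMIs).

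Genes of the cytoskeleton and of migration were higher in 28 of 35 cases, where 50.3% of all compared genes had a ratio above 1, with a median log2 ratio of 0.22 in cDCs and -0.04 in the other kept cells. The 1.5-fold size was passed upward by 5, among them Itgb7, Anxa1, Lgals1 and Crip1, and downward by Itgax. Over all compared genes 9.6% passed it upward and 8.2% downward. Itgb7, a partner chain of the integrin subunits alpha 4 and alpha E, was at 251 CPM in Gsdme-KO and 140 CPM in WT cDCs (1.8, 1.47 to 2.21), against 0.811 in the other kept cells. Itgb7 was higher within each type, with ratios of 1.70 in the Xcr1/Clec9a type and 1.55 in the Cd209a type. It is not a gene of the fibroblast gate, where it was at 1.37 CPM in Gsdme-KO and 2.99 CPM in WT. Itga4, whose product pairs with that of Itgb7, was lower, at 415 CPM in Gsdme-KO and 543 CPM in WT cDCs (0.764, 0.677 to 0.862). Tmsb4x (thymosin beta 4), which holds actin monomers, had a ratio of 1.28 (1.24 to 1.31), and Actb had 1.04 (1.02 to 1.07). Anxa1 and Lgals1 are also genes of the fibroblast gate, and the log2 ratio of Anxa1 was 0.33 without cells with 3 fibroblast genes.

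**Figure D4:**
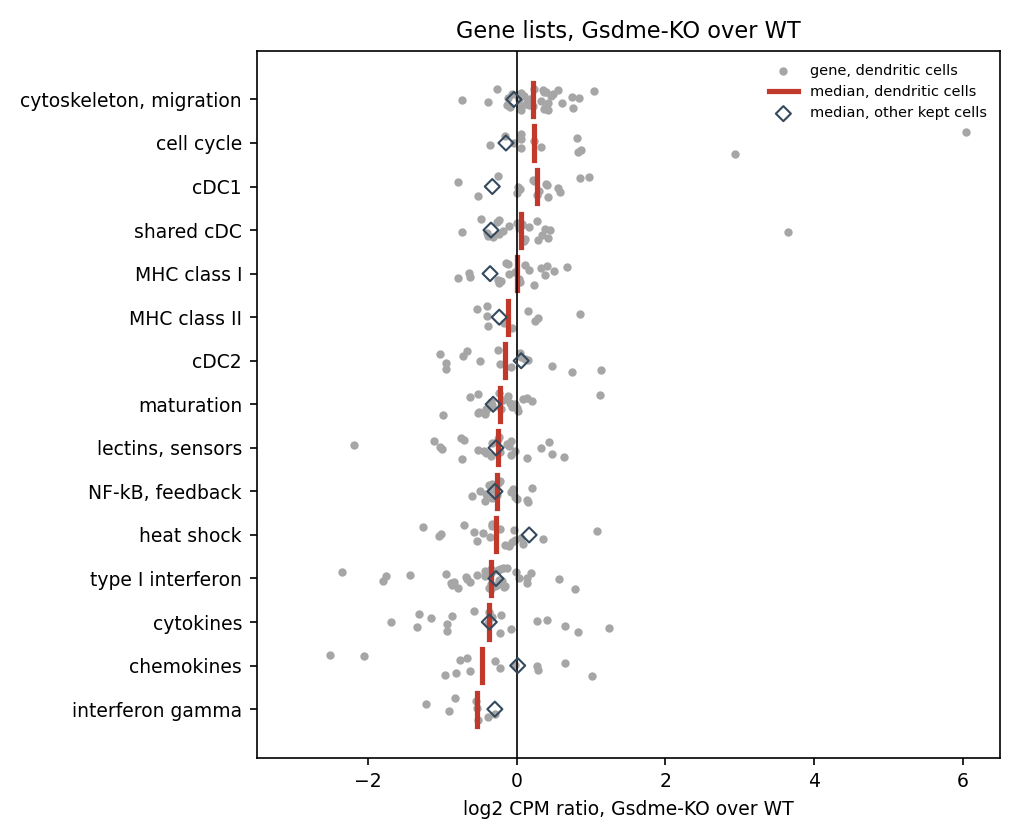
Log2 CPM ratio of Gsdme-KO over WT (horizontal axis) for 15 gene lists in conventional dendritic cells; gray points are compared genes, red bars list medians and open diamonds the list medians in the other kept cells. Interferon gamma genes have the lowest median (-0.54), and cDC1 (0.28), cell cycle (0.23) and cytoskeleton genes (0.22) the highest.

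Of the genes named by size alone, several were also lower in the other kept cells, though not all by the same size. Tpm3-rs7, a tropomyosin 3-related sequence, was at 57.1 CPM in Gsdme-KO cDCs and 471 CPM in WT cDCs (0.121, 0.0939 to 0.155), with 0.137 in the other kept cells. Its reads may be shared with Tpm3. Zfp981, a zinc finger gene, had 0.178 (0.128 to 0.244) in cDCs and 0.262 in the other kept cells. Wdfy1, an endosomal adaptor of Toll-like receptor signalling, had 0.298 (0.198 to 0.441) and 0.296. Adgrg5, an adhesion receptor, had 0.305 (0.189 to 0.481) and 0.0970. These 4 genes were thus lower outside the cDCs as well.

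Timd4 (chr11:46810800-46844332), which encodes the phosphatidylserine receptor TIM-4 that binds apoptotic cells, had 54 UMIs in Gsdme-KO cDCs and 279 in WT cDCs, at 40.6 and 283 CPM (0.144, 0.105 to 0.193). It was found in 9.81% of Gsdme-KO cDCs and 34.1% of WT cDCs. In the fibroblast gate the shares were 0.0682% and 1.08%, so that the share in cDCs of either library lay above that background. The ratio was 0.0374 within the Cd209a type and 0.243 within the Xcr1/Clec9a type. Timd4 was lower in other antigen-presenting cells as well. In the mature dendritic cell gate (39 Gsdme-KO and 32 WT cells, median 4818 and 4906.5 UMIs) it was at 41.7 CPM in Gsdme-KO and 457 CPM in WT. In the macrophage gate it was at 11.6 and 50.6 CPM. Its ratio over all other kept cells was 0.195. Atp11a, a phospholipid flippase, was at 16.5 CPM in Gsdme-KO and 57.7 CPM in WT cDCs (0.286, 0.167 to 0.476), but had a ratio of 2.19 in the Xcr1/Clec9a type, on few UMIs. Col6a1 and Col6a2, collagen VI chains of fibroblasts, owed 130 of 146 and 100 of 117 WT UMIs to 1 cell each, and their ratios without the top cells were 1.25 and 0.787.

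Of the genes higher in Gsdme-KO cDCs, Agpat4 and Mid1 were spread over many cells. Agpat4, an acyltransferase of phospholipid synthesis, was at 118 CPM in Gsdme-KO cDCs and 32.4 CPM in WT cDCs (3.64, 2.48 to 5.50), and was found in 46.7% and 13.8% of them. It had ratios of 4.18 and 3.46 within the types and 2.19 in the other kept cells. Mid1, an E3 ubiquitin ligase on microtubules, was at 72.9 CPM in Gsdme-KO and 16.2 CPM in WT cDCs (4.50, 2.63 to 8.18), against 2.40 in the other kept cells. The macrophage gate had 95.1 CPM in Gsdme-KO and 28.5 CPM in WT (ratio 3.34). In the mature dendritic cell gate it was at 69.5 CPM in Gsdme-KO and 5.25 CPM in WT. Mid1 lies at the end of the X chromosome, at chrX:169685199-170005736. Serpinb1a, a protease inhibitor, had 6.55 (2.82 to 18.7), and Gcsh, of the glycine cleavage system, 3.52 (1.87 to 7.22). After thinning the log2 ratio of Gcsh was -0.74.

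Other genes named by size are abundant in neighbouring cell types. Retnla, an effector of alternatively activated macrophages, was at 154 CPM in Gsdme-KO cDCs and 37.5 CPM in WT cDCs (4.11, 2.89 to 6.00), although found in 10.3% and 10.8% of them. Within the macrophage gate it was at 661 CPM in Gsdme-KO and 693 CPM in WT. Cd163, the haemoglobin scavenger receptor of macrophages, was at 58.6 CPM in Gsdme-KO and 9.12 CPM in WT cDCs (6.43, 3.22 to 14.6). In each library 1 cell held much of it, 40 of 78 Gsdme-KO UMIs and 5 of 9 WT UMIs. Without the top cells its ratio was 7.04. With Adgre1-positive cells included its log2 ratio was 0.24. Ptx3, the soluble pattern receptor pentraxin 3, was at 175 CPM in Gsdme-KO and 50.6 CPM in WT cDCs (3.46, 2.54 to 4.79). Of its Gsdme-KO UMIs 114 of 233 lay in 1 cell, and of its WT UMIs 38 of 50. Without the top cells its ratio was 7.32. The fibroblast gate held 1193 CPM in Gsdme-KO and 1092 CPM in WT. Without cells with 3 fibroblast genes the log2 ratio of Ptx3 was 0.46. Ltbp1, Ugdh and Ly6a had ratios of 6.58, 2.74 and 2.15 in cDCs and likewise had higher levels in the fibroblast gate. Without cells with 3 fibroblast genes, Ltbp1 and Ly6a changed sign, at log2 ratios of -1.54 and -0.54. Within the Cd209a type, F13a1 (coagulation factor XIII of monocytes) and Fn1 (fibronectin) were also named, with ratios of 4.77 and 3.50. Over all cDCs they had 1.30 each, and without cells with 3 fibroblast genes the log2 ratio of Fn1 was -0.38.

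**Figure D5:**
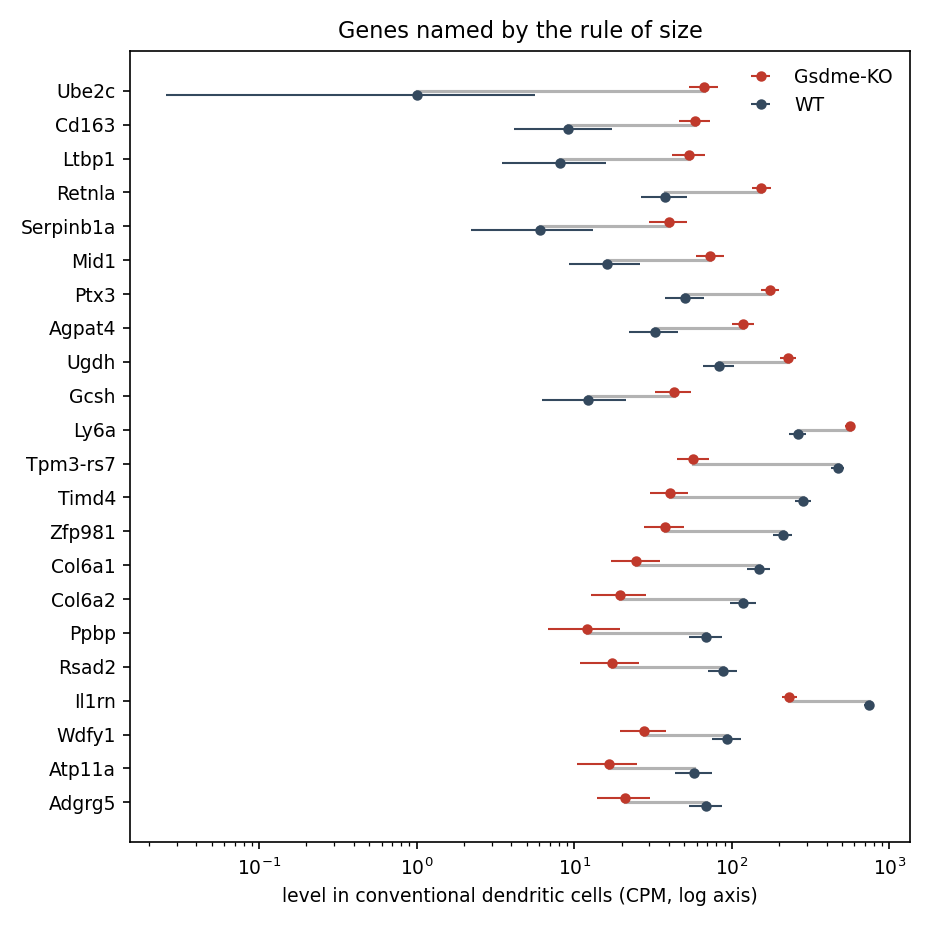
Level in conventional dendritic cells (CPM, horizontal log axis) of genes named by size, in Gsdme-KO (red) and WT (dark blue) with exact 95% intervals of counting error; the upper 11 are higher in Gsdme-KO and the lower 11 lower. The intervals of the libraries do not overlap for any of them, as with Timd4 at 40.6 CPM in Gsdme-KO and 283 CPM in WT. The genes were selected by the size and the interval of their ratio, so that this separation follows largely from the selection.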

How the data were processed

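The authors deposited a matrix of whole-number counts (UMIs per gene and barcode) for each library. Per the submitters' processing notes, CASAVA 1.8, STARsolo and the mm10 build were used, with no roles given. Cells were kept, the cDC rule applied and counts summed per library in Python 3.11.15 with numpy 2.4.6, scipy 1.17.1 and pandas 2.3.3. Ratios are of CPM, with exact conditional binomial intervals, shares have Clopper-Pearson intervals, and levels Poisson intervals. A gene with 0 UMIs was set at 3 counts per library. The script was checked on simulated Poisson sums per gene. These had no clustering of UMIs in single cells, so that the check does not cover it. Scrublet (scanpy 1.11.5) called 1 Gsdme-KO and 0 WT cells, so it did not work, and no cell was removed as a doublet; the 5% with the highest scores were left out as an alternative, as were TMM factors (edgeR 4.0.16).

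Genes named by size passed 1.5-fold, had at least 50 UMIs in the higher library and a CPM of 10% or more of the highest gated class, and were ranked by the interval end nearest 1 (12 each way in cDCs, 5 each way in the Cd209a type; the Xcr1/Clec9a type had under 50 WT cells). Gene models, ribosomal, mitochondrial, haemoglobin, antigen receptor and sex-linked genes (Xist, Tsix, chromosome Y) were left out. From each list, the 2 with the highest interval end each way and the 2 with the most UMIs were taken, and some more were chosen after their values were seen. Some genes these rules name are not reported here. The members and lists were chosen with earlier results of these data known. Of 31253 feature IDs, 31107 were in GENCODE M21, from which gene positions come (GRCm38).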

Additional observations from a re-analysis of the deposited data

Results flagged for a closer look

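Cxcl10, a chemokine that attracts CXCR3-bearing T cells, differed in opposite directions in the types. In the Xcr1/Clec9a type it was at 145 CPM in the Gsdme-KO library and 81.7 CPM in the WT library (ratio 1.77, 1.02 to 3.23, with 62 and 17 UMIs). In the Cd209a type it was at 291 CPM in Gsdme-KO and 469 CPM in WT (ratio 0.621, 0.509 to 0.758). Ifih1 likewise had a ratio of 1.51 in the Xcr1/Clec9a type, on 31 Gsdme-KO and 10 WT UMIs (0.720 to 3.44), and of 0.458 in the Cd209a type (0.342 to 0.612). The difference between the types was not tested.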

How the results depend on the processing

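No paired analysis was possible because each group has 1 library, and for the same reason no replicate could be left out. The ratio of cDC shares was 1.51 without cells with 2 macrophage genes. Genes at least 1.5-fold higher numbered 548, and lower 468. They numbered 135 and 118 after thinning, and 2043 and 1887 with no filter beyond 3 UMIs. Without cells with 2 macrophage genes 271 were lower. TMM factors gave 591 and 425. The type I interferon median (log2) was -1.04 without cells with 3 fibroblast genes, where the interferon gamma median was -1.33. The interferon gamma median was -1.03 without cells with 2 macrophage genes. The MHC class II median was 0.078 after thinning, 0.018 with Adgre1-positive cells and -0.36 in the Cd209a type, and the cell cycle median was -0.021 with the types at equal weight. The maturation median kept its sign in every alternative run, from -0.36 to -0.083, and the Xcr1/Clec9a share ratio ran from 1.11 to 2.32.

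Over 117 genes, 1988 alternatives gave 27 changes of direction for the 71 genes past 1.5-fold and 69 for the 46 genes within it, where ratios lie near 1. Beside the 27, 382 values lay outside the counting interval, some of the 69 among them. Among the 71 genes, without cells with 3 fibroblast genes the log2 ratios that changed direction were Ltbp1 -1.54, Ly6a -0.54, Igf1 -1.02, Csf1 -0.76, Cxcl1 -1.30 and Hspb1 -0.21. After thinning they were Gcsh -0.74, Cd302 -0.032, Igf1 -0.58, Hspb1 -0.32 and Birc5 -0.32. Without cells with 2 macrophage genes they were Col6a1 0.25, Col6a2 0.76, Plpp1 0.20, Igf1 -0.49, Csf1 -0.65 and Cxcl1 -0.043. With Adgre1-positive cells they were Igf1 -0.37, Csf1 -0.45 and Cxcl2 0.41. In the Cd209a type they were Plpp1 0.33 and Bst2 -0.012. Cxcl1 was -0.13 with at least 1% of MHC II UMIs and -0.089 as a mean over cells. Col6a1 was 0.32 without the top cell, Irgm1 0.084 with at least 3 rule genes, and Hspb1 -0.0069 without the top Scrublet scores. Examples among the genes within 1.5-fold were Cadm1 0.46, Fn1 -0.38 and Ly6e -0.14 without cells with 3 fibroblast genes. F13a1 was -0.10 with at least 3 rule genes, and Mki67 was 0.22 with Adgre1-positive cells. The cause was not tested. The alternatives with the top cell left out, the Cd209a type alone, Adgre1-positive cells, fibroblast and plasmacytoid genes and without Ifi205 were chosen after seeing the data. None of the 117 genes left its interval under TMM or median-of-ratios factors, at least 1000 UMIs, at most 10% mitochondrial UMIs or without plasmacytoid cells. Depth limits genes of few UMIs most.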
